A study of Mus musculus with 45 samples.

Results

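The nuclear genes that encode subunits of respiratory complexes II to V were followed in RNA from mouse hearts that overexpressed ERBB2, a receptor tyrosine kinase, for a limited time in their cardiomyocytes. The genes were chosen by symbol, with pseudogenes left out. Sdha to Sdhd stood for complex II, Cyc1 and symbols that begin with Uqcr for complex III, symbols that begin with Cox4 to Cox8 for complex IV, and symbols that begin with Atp5 for complex V. This gave 47 of the 19432 genes listed, with 4 genes in complex II, 9 in complex III, 17 in complex IV and 17 in complex V. Hearts with the ERBB2 transgene (OE) and wild-type hearts (WT) were each taken after the ischaemic injury labelled MI and after sham treatment. They were collected during overexpression (T1), 2 weeks after it ended (T2) or 4 weeks after it ended (T3). The 12 groups of OE MI, OE sham, WT MI and WT sham hearts at the 3 times held 4 libraries each, apart from OE MI and WT MI at T2 and OE sham at T3 with 3 libraries each. This makes 45 libraries of poly(A) RNA from powdered whole heart. The labels give no strain, no age, no promoter for the transgene and no day of injury.

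Complex II (succinate dehydrogenase) takes electrons from succinate, complex III passes them from ubiquinol to cytochrome c, and complex IV (cytochrome c oxidase) passes them on to oxygen. Complex V (ATP synthase) makes ATP from the proton gradient that complexes III and IV help to build. Complex II is encoded wholly in the nucleus, whereas complexes III, IV and V also hold subunits encoded by mitochondrial DNA. Cardiac muscle is rich in mitochondria, and for several subunits of complex IV it uses a muscle form (Cox6a2, Cox7a1, Cox8b) beside the form found in most tissues (Cox6a1, Cox7a2, Cox8a). Of the 47 genes, 3 match by symbol although they are not core subunits, namely Cox7a2l (a supercomplex assembly factor), Atp5s (a factor associated with ATP synthase) and Atp5sl, which the GENCODE M21 annotation names Dmac2. Cox6b2 and Cox7b2 are forms known from testis. In that annotation (GRCm38) the genes lie on 18 chromosomes, with Cox7b on the X chromosome, 15 on the plus strand and 32 on the minus strand.

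Libraries held 14199741 to 19015856 reads assigned to genes. Erbb2 had 770 to 2436 normalized counts in OE sham hearts at T1, against 243 to 250 in WT sham hearts, and 769 to 2401 in OE MI hearts at T1, against at most 303 in WT MI hearts. After overexpression ended the gap was smaller, with 271 to 308 in OE sham hearts at T2 against 172 to 218 in WT sham hearts. Erbb2 was still called higher there (log2 fold change 0.48, limma adjusted p = 0.000259). In MI hearts at T2 it had 268 to 325 in OE against 227 to 248 in WT, without overlap but not called (0.28, limma adjusted p = 0.207). At T3 it had 235 to 240 in OE sham hearts against 174 to 222 in WT sham hearts, and was not called (0.22, limma adjusted p = 0.141). Summed over 10 cardiomyocyte marker genes, the libraries held 681911 to 1300817 normalized counts at T1. The authors normalized T1 in a table of its own and T2 with T3 in another, so tests were run and levels compared only within a table. Of the 47 genes, 46 passed the filter on low values in both tables, and Cox7b2 did not, with at most 6.41 normalized counts in any T1 library and 5.47 in any later one. In the WT sham hearts at T1 the highest levels per kilobase of transcript belonged to Atp5b (catalytic beta subunit of ATP synthase) with a mean of 49850 normalized counts per kb, Cox6a2 with 39400 and Atp5a1 (catalytic alpha subunit) with 34390. Their ranges over the 4 hearts were 47760 to 52990, 36880 to 44130 and 32060 to 37620 normalized counts per kb, so that Cox6a2 and Atp5a1 overlapped. In the OE sham hearts at T1 Atp5b was again first with 31460 normalized counts per kb, and Atp5a1 with 17980 and Cox6a2 with 17790 lay side by side.

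During overexpression, subunit transcripts of all 4 complexes were lower in OE than in WT sham hearts. Of the 46 genes tested, 41 fell and none rose at T1 (limma on log2(normalized count + 1), Benjamini-Hochberg adjusted p under 0.05 over 15375 genes). Their median log2 fold change was -0.74, beside 0.01 over all genes tested, of which 23.3% were called lower and 24.0% higher. The 47 genes summed to 302241, 342074, 331090 and 284103 normalized counts in the 4 OE sham hearts, against 506406, 585402, 545909 and 542267 in the 4 WT sham hearts. The groups did not overlap, and every OE library also lay below every WT library for 40 of the 46 genes tested one by one, compared with 23.2% of all genes. As a share of all reads assigned to genes, the 47 genes made up 1.87 to 2.14% in OE sham hearts and 2.69 to 2.88% in WT sham hearts.

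**Figure D1:**
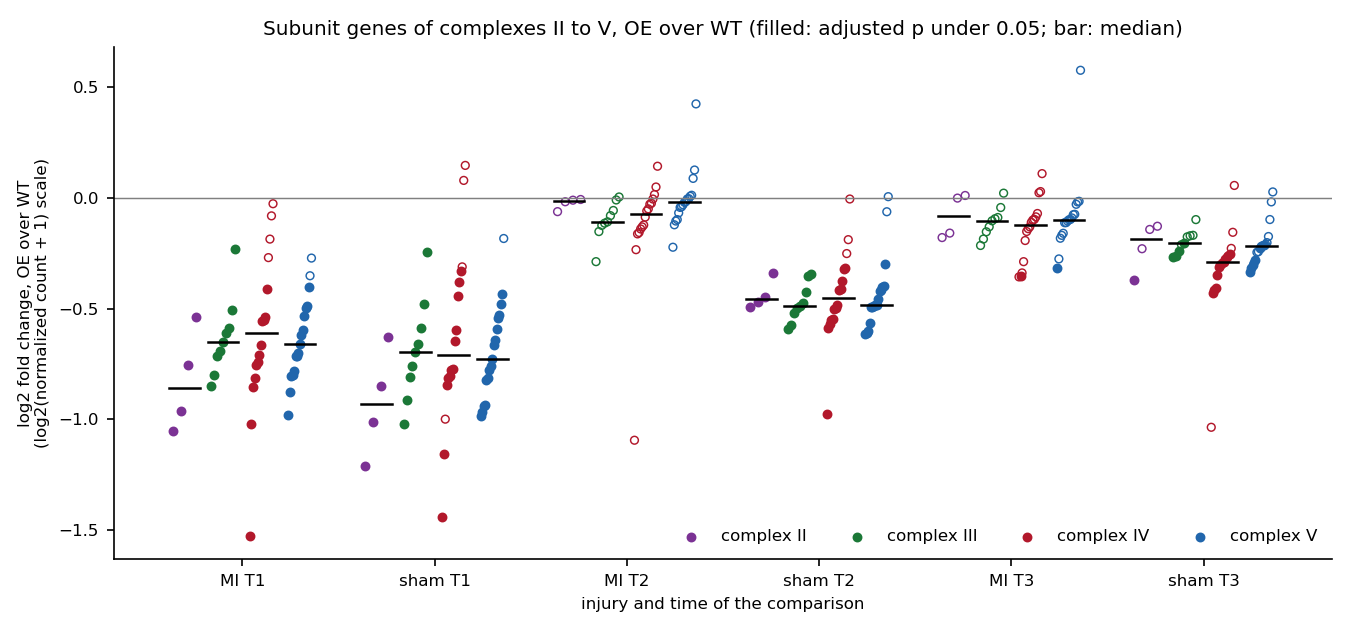
Log2 fold change of OE over WT (vertical axis) of each tested gene, coloured by complex, for MI and sham hearts at T1, T2 and T3 (horizontal axis). Each point is 1 gene, filled where called, and bars are medians by complex. At T1 nearly all points lie below 0 in both MI and sham hearts (40 and 41 of 46 called lower), and at T2 no point of the MI hearts is filled while 41 of the sham hearts are.

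Markers of cell types moved with this difference. Of 10 cardiomyocyte markers, 8 were called lower in OE sham hearts at T1, with a median log2 fold change of -0.94 and sums of 741977 to 865861 normalized counts in OE sham hearts against 1156115 to 1300817 in WT sham hearts. Of 9 fibroblast markers, 8 were called higher, with sums of 119108 to 146336 in OE sham hearts against 27005 to 30790 in WT sham hearts. Of 9 macrophage markers, 6 were called higher, with sums of 8501 to 11197 in OE sham hearts against 6553 to 8610 in WT sham hearts. Of 7 endothelial markers, 2 were called lower, with sums of 18932 to 26460 in OE sham hearts against 23168 to 29450 in WT sham hearts. No marker was at 0 in all libraries of a group, and the part of these cell types in the fall of the respiratory genes was not tested. As a percentage of the summed cardiomyocyte markers, the 47 genes together stood at 38.2 to 40.7% in OE sham hearts and 42.5 to 45.6% in WT sham hearts, without overlap. Such sums are weighted towards abundant genes. By median log2 fold change the order was the other way, with -0.94 for the 10 markers and -0.74 for the 46 genes tested. Whether the respiratory genes fell more than the markers thus depended on the measure. In the MI hearts at T1 the same percentage was 36.8 to 42.8% in OE and 39.8 to 46.1% in WT, with overlap. In bulk tissue, fewer cells of a type and less RNA per cell cannot be told apart. The authors' normalization places the median of all genes near 0. With libraries scaled by their totals that median was 0.31, and the respiratory genes' median minus that of all genes was -0.75 (-0.76 in the authors' scale). Then 33 of them fell, and Cox6a1 and Cox8a were called higher. Of all genes called, 49.2% were lower in the authors' scale and 20.0% with library totals.

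All 4 subunits of complex II fell, with a median log2 fold change of -0.93. Sdha (chromosome 13, 74322254 to 74350280), the flavoprotein subunit that oxidises succinate, had 9284, 10301, 10263 and 10097 normalized counts in OE sham hearts, against 21337, 24863, 24408 and 22075 in WT sham hearts. Its log2 fold change of -1.21 ± 0.10 (SE, limma adjusted p = 2.4e-07) was the largest of the complex, and the highest OE heart lay far below the lowest WT heart. Sdhb (chromosome 4, 140961203 to 140979193), the iron-sulfur subunit, had 6740, 7791, 7113 and 6279 normalized counts in OE sham hearts, against 13242, 15617, 13599 and 13816 in WT sham hearts. Its groups did not overlap either (log2 fold change -1.01 ± 0.08, limma adjusted p = 2.42e-07). The membrane anchors Sdhc and Sdhd fell by 0.85 ± 0.08 and 0.63 ± 0.08 on the log2 scale (limma adjusted p = 5.14e-07 and 1.13e-05), so Sdhd had the smallest change of the complex.

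All 9 genes of complex III fell, with a median of -0.70. Uqcrc1 (chromosome 9, 108936633 to 108949623), a core protein of the complex, had 9689, 10871, 11058 and 9889 normalized counts in OE sham hearts, against 20561, 22531, 20406 and 20654 in WT sham hearts. The groups stood far apart and Uqcrc1 had the largest change of the complex, with a log2 fold change of -1.02 ± 0.07 (limma adjusted p = 8.06e-08). Cyc1 (chromosome 15, 76343523 to 76346260), the cytochrome c1 subunit that hands electrons to cytochrome c, had 8856, 9932, 9742 and 7934 normalized counts in OE sham hearts, against 14480, 16720, 15200 and 15189 in WT sham hearts. Every OE heart lay below every WT heart for Cyc1 too (log2 fold change -0.76 ± 0.08, limma adjusted p = 1.52e-06). Uqcr10, a small subunit, had the smallest change of the complex (-0.24 ± 0.07, limma adjusted p = 0.00971), and its sign turned with libraries scaled by their totals (0.06).

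Complex IV was the least uniform. Of its 16 genes tested, 12 fell and the median was -0.71, and the 4 genes not called were Cox6a1, Cox8a, Cox4i2 and Cox6b2. Cox7a1 (chromosome 7, 30184144 to 30186078), the muscle form of subunit VIIa, had 3043, 3612, 3643 and 2980 normalized counts in OE sham hearts, against 7838, 9092, 9316 and 9724 in WT sham hearts. The OE hearts stayed under every WT heart by a wide gap, and its log2 fold change of -1.44 ± 0.10 (limma adjusted p = 1.08e-07) was the largest of the complex. Cox6a1, the common form of subunit VIa, had the smallest, with 2252, 2073, 1910 and 1525 normalized counts in OE sham hearts, against 1654, 1648, 1858 and 2157 in WT sham hearts (0.08 ± 0.12, limma adjusted p = 0.607). Its groups overlapped fully. Cox6b2 was low throughout, with 12 to 17.1 normalized counts in OE sham hearts and 15.9 to 62.1 in WT sham hearts (-1.0 ± 0.40, limma adjusted p = 0.0523).

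Of the 17 genes of complex V, 16 fell, with a median of -0.73. Atp5b had 58330, 64731, 61665 and 56354 normalized counts in OE sham hearts, against 91499, 101528, 95467 and 93557 in WT sham hearts, without overlap (log2 fold change -0.67 ± 0.08, limma adjusted p = 9.15e-06). Other members of the catalytic head fell as well, with Atp5a1 at -0.93 ± 0.08 and Atp5c1, the central stalk gamma subunit, at -0.94 ± 0.09 (limma adjusted p = 5.45e-07 and 7.86e-07). Atp5s had the largest change of the group (-0.99 ± 0.15, limma adjusted p = 4.86e-05) and Atp5g2, a gene for the c subunit of the membrane ring, the smallest (-0.18 ± 0.22, limma adjusted p = 0.518). The other c-subunit genes, Atp5g1 and Atp5g3, fell by 0.97 ± 0.12 and 0.73 ± 0.08 on the log2 scale (limma adjusted p = 7.78e-06 and 2.82e-06). Atp5c1, Atp5g2, Atp5h, Atp5k, Atp5l, Atp5o, Cox7c and Uqcrb each share a stretch of at least 95% identity over at least 50% of their transcript with another annotated gene, so reads may have been split between copies and their values are uncertain.

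**Figure D2:**
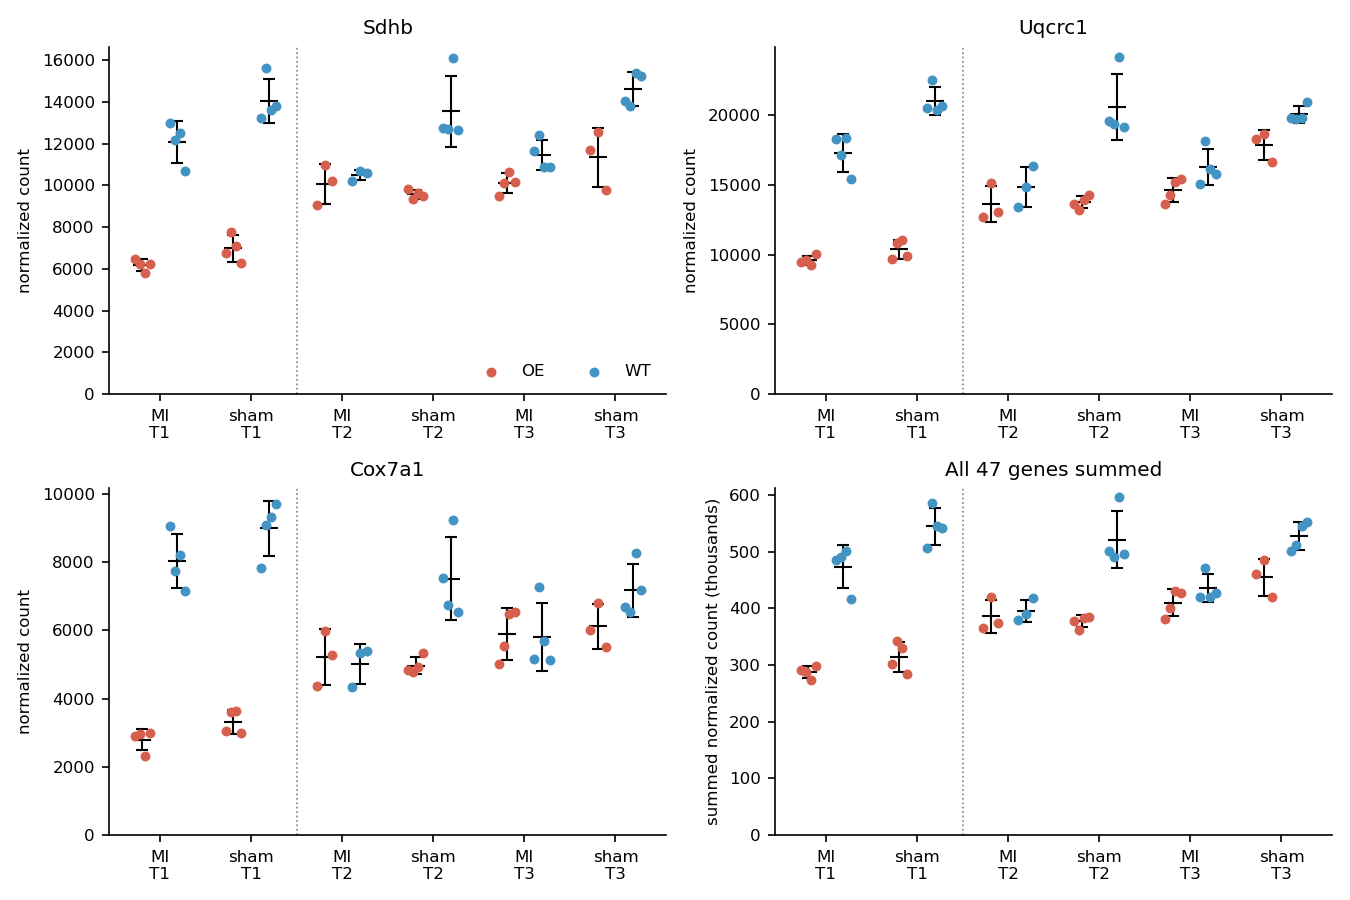
Normalized counts (vertical axes, from 0) of Sdhb, Uqcrc1, Cox7a1 and the sum of all 47 genes (scaled down as its axis says) in every library, by injury and time (horizontal axes), with the T1 table and the later table divided by a dotted line. Points are libraries, OE left of WT, with mean and SD. At T1 the OE points lie below all WT points in each panel, and at T2 the OE MI and WT MI points overlap.

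Of the subunits encoded by mitochondrial DNA, mt-Co1 and mt-Cytb were read alongside. The others looked up, mt-Co2, mt-Co3, mt-Atp6 and mt-Atp8, were not among the genes tested. No mitochondrially encoded subunit of complex V was therefore read. In OE over WT sham hearts at T1, mt-Co1, a catalytic subunit of complex IV, had a log2 fold change of -1.05 ± 0.09 (limma adjusted p = 3.89e-07). For mt-Cytb, the cytochrome b of complex III, it was -0.73 ± 0.10 (limma adjusted p = 2.37e-05). In sham hearts at T2 both were again called lower in OE (-0.37 and -0.28, limma adjusted p = 0.00907 and 0.0462). At T3 neither was called in sham hearts (-0.30 and -0.26, limma adjusted p = 0.0708 and 0.127). Transcripts of the mitochondrial genome averaged 17.8% of reads in OE sham hearts and 26.1% in WT sham hearts at T1.

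Muscle and common forms of complex IV subunits changed unequally at T1. Within each library the ratio of the 2 forms was taken, which does not depend on how libraries are scaled. It is not free of the mix of cell types, as the common forms are found in most tissues. In OE sham hearts at T1, 8 of 10 cardiomyocyte markers were called lower and 8 of 9 fibroblast markers higher. The part of these cell types in the ratios was not tested. The log2 ratio of Cox6a2 to Cox6a1 was 2.21, 2.73, 2.85 and 2.78 in OE sham hearts, against 3.92, 4.19, 3.85 and 3.55 in WT sham hearts, a mean difference of -1.24. For Cox7a1 to Cox7a2 the log2 ratio was -0.19 to 0.29 in OE sham hearts and 0.98 to 1.07 in WT sham hearts, with a mean difference of -1.0. The log2 ratio of Cox8b to Cox8a was 0.65 to 1.34 in OE sham hearts and 1.94 to 2.12 in WT sham hearts, with a mean difference of -0.96. None of the 3 ratios overlapped between the groups, and each gave a permutation p of 0.0286 (exact two-sided permutation test, the smallest p that 4 against 4 hearts allow; 0.0381 adjusted over the 12 ratios tested). The genes behind the ratios differed in their own changes. Cox6a2 had 10396, 13713, 13781 and 10493 normalized counts in OE sham hearts, against 25073, 30003, 26829 and 25267 in WT sham hearts (log2 fold change -1.16 ± 0.10, limma adjusted p = 4.75e-07). Cox8a, the common form of subunit VIII, had 2526, 2250, 2100 and 1444 normalized counts in OE sham hearts, against 1661, 1868, 1935 and 1912 in WT sham hearts (0.15 ± 0.13, limma adjusted p = 0.367), with overlap. Cox8b fell by 0.82 ± 0.11 and Cox7a2 by 0.44 ± 0.11 on the log2 scale (limma adjusted p = 1.84e-05 and 0.00416). Of subunit IV the common form, Cox4i1, fell (-0.85 ± 0.09, limma adjusted p = 2.69e-06). Cox4i1 had 10488, 12218, 12168 and 9735 normalized counts in OE sham hearts, against 18871, 21415, 19785 and 19839 in WT sham hearts. Cox4i2, a form known from lung, had 118 to 160 in OE sham hearts and 154 to 187 in WT sham hearts (-0.31 ± 0.14, limma adjusted p = 0.0758).

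**Figure D3:**
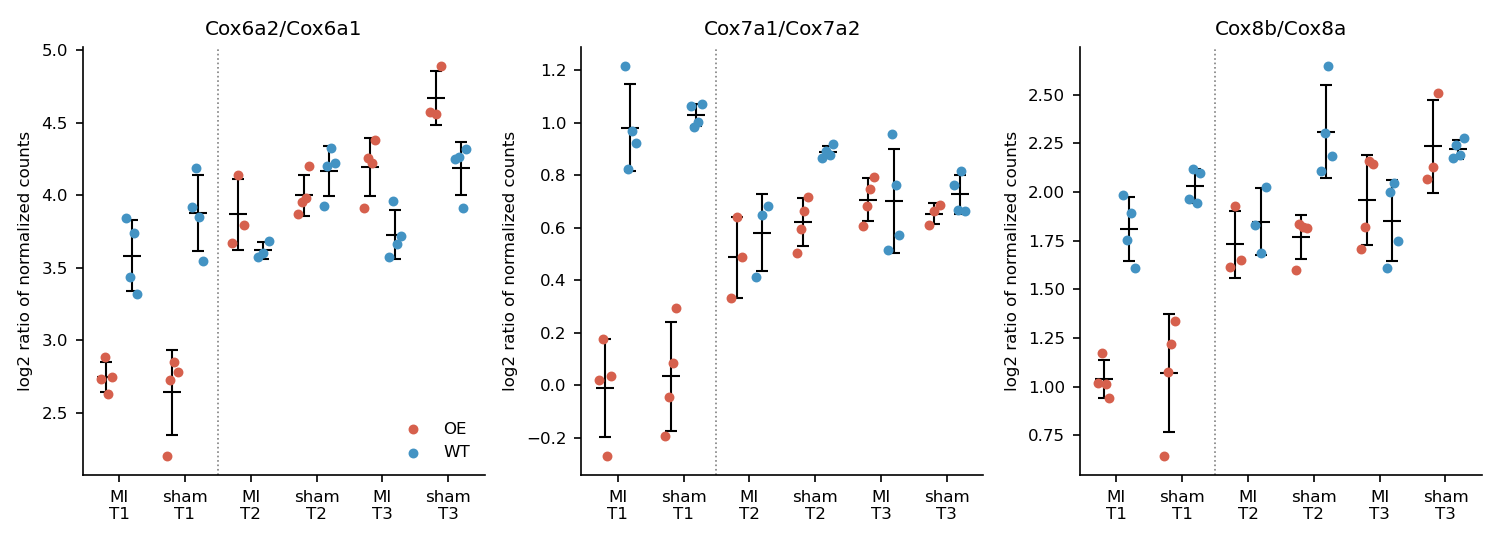
Log2 ratio of the muscle form to the common form within each library (vertical axes) for Cox6a2 to Cox6a1, Cox7a1 to Cox7a2 and Cox8b to Cox8a, by group with OE left of WT. Points are libraries, with mean and SD. All 3 ratios are lower in OE hearts at T1. The Cox6a2 to Cox6a1 ratio is higher in OE sham hearts at T3 without overlap, and its mean is also higher in OE MI hearts at T3, with overlap.

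The stretch from 250 bases before to 50 bases after the start of each gene was read from RefSeq (GRCm38.p6). It shows which letters the genes of the set share near their starts. A window was found for 34 of the 47 genes, among them some that were not called at T1, such as Atp5g2, and the untested Cox7b2. The letters GCGCANGCG, a site form of NRF1 (a transcription factor known for nuclear respiratory genes), were present on either strand in 11 of the 34, or 32.4%, against 13.0% of the 11093 genes with such a window. As this motif is nearly its own reverse complement, 1 site can give 2 overlapping matches. TCAAGGTCA, of the oestrogen-related receptors, was present in 2 genes, or 5.9%, against 0.3% of all windows, and CCGGAAGT, of ETS factors, in 4 genes, or 11.8%, against 7.7%. AANATGGCG, of YY1, was present in 2 genes, or 5.9%, against 4.9%, and the MEF2 motif in none, against 2.0%. A match describes the letters of the window and is neither a bound site nor a cause. The windows of Sdha, Sdhb and Uqcrc1, which fell in OE sham hearts at T1, and of the complex IV forms with a RefSeq window are shown 5′ to 3′ on the gene's strand, with matches to any of these motifs in capitals.
Sdha (chr13:74350191-74350490, minus strand): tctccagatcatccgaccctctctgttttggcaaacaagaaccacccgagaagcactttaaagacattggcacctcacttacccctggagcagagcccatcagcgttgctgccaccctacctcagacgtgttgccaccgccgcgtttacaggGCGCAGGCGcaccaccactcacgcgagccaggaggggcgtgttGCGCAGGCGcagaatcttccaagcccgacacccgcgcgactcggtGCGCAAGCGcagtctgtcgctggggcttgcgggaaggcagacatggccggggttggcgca
Sdhb (chr4:140961021-140961320, plus strand): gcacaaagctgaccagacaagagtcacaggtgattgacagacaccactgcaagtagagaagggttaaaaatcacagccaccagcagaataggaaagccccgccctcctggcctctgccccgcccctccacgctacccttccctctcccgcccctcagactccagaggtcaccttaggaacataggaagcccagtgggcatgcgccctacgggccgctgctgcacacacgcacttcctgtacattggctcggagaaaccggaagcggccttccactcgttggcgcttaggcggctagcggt
Uqcrc1 (chr9:108936398-108936697, plus strand): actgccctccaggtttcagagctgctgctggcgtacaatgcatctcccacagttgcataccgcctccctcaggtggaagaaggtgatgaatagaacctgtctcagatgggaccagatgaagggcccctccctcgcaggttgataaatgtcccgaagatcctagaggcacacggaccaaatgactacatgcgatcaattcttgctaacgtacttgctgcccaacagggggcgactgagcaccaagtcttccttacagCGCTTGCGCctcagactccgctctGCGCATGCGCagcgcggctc
Cox6a1 (chr5:115348909-115349208, minus strand): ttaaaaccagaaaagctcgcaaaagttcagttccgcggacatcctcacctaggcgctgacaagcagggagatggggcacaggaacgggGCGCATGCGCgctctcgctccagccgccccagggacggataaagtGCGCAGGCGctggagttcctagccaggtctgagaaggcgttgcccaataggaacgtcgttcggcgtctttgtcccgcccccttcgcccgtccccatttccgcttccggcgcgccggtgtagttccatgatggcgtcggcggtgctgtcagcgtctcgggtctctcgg
Cox7a1 (chr7:30183921-30184220, plus strand): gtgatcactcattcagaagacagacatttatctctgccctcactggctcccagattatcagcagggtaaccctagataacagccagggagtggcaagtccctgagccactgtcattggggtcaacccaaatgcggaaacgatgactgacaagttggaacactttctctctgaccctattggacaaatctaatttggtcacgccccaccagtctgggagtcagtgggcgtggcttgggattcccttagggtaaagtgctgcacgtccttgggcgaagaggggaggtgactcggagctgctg
Cox7a2 (chr9:79759804-79760103, minus strand): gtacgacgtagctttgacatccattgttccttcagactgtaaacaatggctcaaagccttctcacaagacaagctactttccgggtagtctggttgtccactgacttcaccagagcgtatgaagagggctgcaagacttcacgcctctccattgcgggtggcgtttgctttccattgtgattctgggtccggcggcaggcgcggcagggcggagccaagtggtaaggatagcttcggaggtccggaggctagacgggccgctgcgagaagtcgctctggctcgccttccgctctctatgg
Cox8a (chr19:7217567-7217866, minus strand): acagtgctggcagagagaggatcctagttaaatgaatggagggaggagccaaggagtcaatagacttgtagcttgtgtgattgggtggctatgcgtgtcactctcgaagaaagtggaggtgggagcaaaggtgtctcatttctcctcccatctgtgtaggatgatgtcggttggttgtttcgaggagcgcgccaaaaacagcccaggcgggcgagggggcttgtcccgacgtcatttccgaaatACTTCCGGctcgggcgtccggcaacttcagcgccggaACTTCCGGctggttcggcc
Cox8b (chr7:140900397-140900696, minus strand): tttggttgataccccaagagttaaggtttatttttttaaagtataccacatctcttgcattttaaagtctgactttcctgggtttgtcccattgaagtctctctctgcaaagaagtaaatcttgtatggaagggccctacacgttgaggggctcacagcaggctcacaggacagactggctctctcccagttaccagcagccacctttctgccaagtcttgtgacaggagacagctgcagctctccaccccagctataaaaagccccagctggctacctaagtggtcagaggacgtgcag
Matches stood in Sdha and Uqcrc1, which fell in OE sham hearts at T1 by 1.21 and 1.02 on the log2 scale, and also in Cox6a1 (NRF1) and Cox8a (ETS), which were not called, while the windows of Sdhb, Cox7a1, Cox8b and Cox7a2, which fell, held none.

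After MI, the comparison of OE with WT at T1 drew on other hearts. Of the 46 genes tested, 40 fell and none rose, with a median log2 fold change of -0.66 and 15.2% of all genes called lower and 14.7% higher. Every OE MI heart lay below every WT MI heart for 40 genes, against 12.9% of all genes. By complex, 4 of 4, 9 of 9, 12 of 16 and 15 of 17 genes fell in complexes II, III, IV and V, with medians of -0.86, -0.65, -0.61 and -0.66. Cox7a1 had 2918, 2951, 2328 and 2989 normalized counts in OE MI hearts, against 9061, 7731, 8211 and 7166 in WT MI hearts (log2 fold change -1.53 ± 0.10, limma adjusted p = 6.72e-07). Sdhb had 6475, 6247, 5782 and 6252 normalized counts in OE MI hearts, against 12971, 12167, 12503 and 10694 in WT MI hearts (-0.96 ± 0.08, limma adjusted p = 1.94e-06). Neither gene's groups overlapped. Uncalled genes were Cox6a1 (-0.19), Cox8a (-0.08), Cox4i2 (-0.27), Cox6b2 (-0.03), Atp5g2 (-0.35) and Atp5l (-0.27). The Cox6a2 to Cox6a1, Cox7a1 to Cox7a2 and Cox8b to Cox8a log2 ratios were lower in OE MI than in WT MI hearts by mean differences of -0.84, -0.99 and -0.77. The exact permutation test again gave its smallest p, 0.0286, for each. Across the 46 genes, the log2 fold changes in sham and MI hearts, which share no library, had a Pearson r of 0.82 and a Spearman rho of 0.84, where genes are not independent replicates. The fall was larger in sham hearts for 32 of them. The interaction of OE and MI at T1 was called for none of the 46 genes by limma or edgeR, and for none at an unadjusted p under 0.05, with 0.0911% of all genes called. In the MI hearts 7 of 10 cardiomyocyte markers were called lower in OE and 6 of 9 fibroblast markers higher, and their part was not tested. With library totals 34 of the 46 genes fell and 15.4% of all genes called were lower, against 51.0% in the authors' scale.

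After overexpression had ended, most of these genes were still lower in sham hearts. At T2, 41 of 46 genes tested were lower in OE than in WT sham hearts and none was higher, with a median log2 fold change of -0.48, while 13.6% of all 15533 genes tested were called lower and 11.8% higher. By complex, 4 of 4, 9 of 9, 13 of 16 and 15 of 17 genes fell, with medians of -0.46, -0.49, -0.45 and -0.48. Uqcrc1 had 13608, 13241, 13961 and 14295 normalized counts in OE sham hearts, against 19624, 19395, 24164 and 19195 in WT sham hearts (-0.57 ± 0.08, limma adjusted p = 4.25e-06). Sdhb had 9844, 9344, 9634 and 9509 normalized counts in OE sham hearts, against 12740, 12700, 16122 and 12645 in WT sham hearts, and Cox7a1 had 4844, 4773, 4921 and 5325 against 7530, 6759, 9230 and 6538 in WT sham hearts. For all 3 genes the OE hearts lay close together below the WT hearts, and the third WT heart stood above the other WT hearts. The smallest p-values belonged to Atp5g3 (-0.49 ± 0.06), Uqcrc1, Cox7b, a complex IV subunit (-0.57 ± 0.07), Uqcrfs1, the Rieske iron-sulfur protein of complex III (-0.52 ± 0.07), and Cyc1 (-0.50 ± 0.07), with limma adjusted p from 3.6e-06 to 5.65e-06. Every OE heart lay below every WT heart for 39 genes, against 13.5% of all genes. At this time 7 of 10 cardiomyocyte markers were called lower, with sums of 905267 to 994152 in OE sham hearts against 1036077 to 1196867 in WT sham hearts. Of 9 fibroblast markers, 8 were called higher, with sums of 40317 to 41610 in OE sham hearts against 21028 to 22920 in WT sham hearts. Of 9 macrophage markers, 3 were called lower, with sums of 5042 to 5628 in OE sham hearts against 5940 to 8998 in WT sham hearts. Their part in the result was not tested. With libraries scaled by their totals the median of all genes was 0.22, and 31 of the 46 genes fell; 12.8% of all genes called were then lower, against 53.5% in the authors' scale.

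At T3, 22 of the 46 genes were lower in OE than in WT sham hearts and none was higher, with a median log2 fold change of -0.24, and 6.57% of all genes were called lower and 6.54% higher. By complex, 1 of 4, 4 of 9, 11 of 16 and 6 of 17 genes fell. Sdhb had 11721, 12546 and 9798 normalized counts in OE sham hearts, against 14028, 13825, 15374 and 15264 in WT sham hearts, without overlap (-0.37 ± 0.08, limma adjusted p = 0.00425). Cox5b, a subunit of complex IV, had 4145, 4192 and 3794 normalized counts in OE sham hearts, against 4949, 5013, 5837 and 5838 in WT sham hearts, also without overlap (-0.42 ± 0.10, limma adjusted p = 0.0046). Cox6a1, which was not called at T1, had 1005, 1037 and 757 normalized counts in OE sham hearts, against 1141, 1115, 1507 and 1257 in WT sham hearts (-0.43 ± 0.10, limma adjusted p = 0.00738). Cox8a was likewise called at T3 but not at T1 (-0.30, limma adjusted p = 0.0391). Atp5c1 (-0.30 ± 0.08) and Cox7b (-0.29 ± 0.08) completed the 5 genes of smallest p (limma adjusted p = 0.0116 and 0.017). Several genes with large changes at T1 were not called at T3, among them Cox7a1 (-0.23, limma adjusted p = 0.271), Sdha (-0.23, 0.0655) and Uqcrc1 (-0.17, 0.177). For Cox7a1 the OE sham hearts had 6027, 6813 and 5519 normalized counts, against 6692, 6536, 8265 and 7198 in WT sham hearts, with overlap. Cox6a2 had 23914, 24496 and 22452 normalized counts in OE sham hearts, against 21718, 21403, 22748 and 25137 in WT sham hearts, with overlap. Its log2 ratio to Cox6a1 was higher in OE (4.56 to 4.89) than in WT sham hearts (3.92 to 4.32), a mean difference of 0.49 with an exact permutation p of 0.0286. At T2 this ratio differed by -0.17 (exact permutation p = 0.257). The Cox7a1 to Cox7a2 and Cox8b to Cox8a ratios differed by -0.27 and -0.54 at T2 (exact permutation p = 0.0286 each) and by -0.07 and 0.01 at T3 (p = 0.257 and 0.971). In MI hearts the Cox6a2 to Cox6a1 log2 ratio differed by 0.25 at T2 and 0.46 at T3. The Cox7a1 to Cox7a2 and Cox8b to Cox8a ratios differed there by -0.09 and -0.12 at T2 and by 0.01 and 0.11 at T3. All these ratios overlapped between OE MI and WT MI hearts, and their differences were not tested.

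The count at T3 rested on few libraries, being 1 gene (Cox5b) without the third OE sham heart and 9 without the first. Without the third and the fourth WT sham heart it was 5 and 7, and the count was 3 (Cox5b, Cox6a1, Sdhb) with libraries scaled by their totals, where 21.3% of all genes called were lower, against 50.1% in the authors' scale. Every OE heart lay below every WT heart for 33 of the 46 genes, against 13.2% of all genes. At T3, 3 of 10 cardiomyocyte markers were called lower and no fibroblast marker was called higher by limma, with sums of 19934 to 21931 in OE sham hearts against 21967 to 24371 in WT sham hearts. Of 7 endothelial markers 2 were called lower, with sums of 17731 to 18528 in OE sham hearts against 20880 to 22801 in WT sham hearts, and 1 of 9 macrophage and 1 of 6 adipocyte markers were called lower. Their part was not tested.

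Across the 3 times, 20 genes were called lower in OE sham hearts at each. They were Sdhb of complex II, Cyc1, Uqcrc2, Uqcrfs1 and Uqcrh of complex III, Cox4i1, Cox5a, Cox5b, Cox6b1, Cox6c, Cox7a2l, Cox7b, Cox7c and Cox8b of complex IV, and Atp5a1, Atp5b, Atp5c1, Atp5e, Atp5g1 and Atp5j2 of complex V. In all, 40 genes were called at both T1 and T2, Atp5l was called at T1 and not at T2, and Cox6b2 at T2 (-0.98, limma adjusted p = 0.0307) and not at T1. Of all genes tested, 23.3%, 13.6% and 6.57% were called lower in OE sham hearts at T1, T2 and T3. The share of all genes called at several times was not counted, so the counts of 20 and 40 have no such share beside them. The order of the genes by log2 fold change at T1 resembled that at T2 (Pearson r 0.68, Spearman rho 0.7 over 46 genes, with other libraries at each time) and not that at T3 (-0.04 and -0.05). The fall was larger at T1 than at T2 for 42 of the 46 genes. As T1 was normalized apart from the later times, its fold changes were only set beside theirs. No difference between T1 and a later time was tested. Within the later table, the change of the OE effect between T2 and T3 in sham hearts was called for 6 genes, all towards a smaller fall. The median over the 46 was 0.23, and 6.11% of all genes were called lower and 6.19% higher. The same change was called positive for 2 of 10 cardiomyocyte markers and negative for 5 of 9 fibroblast markers (medians 0.15 and -0.98) and 1 of 7 endothelial markers, and their part was not tested. The 5 of smallest p were Cox6a2 (0.47 ± 0.13), Uqcrc1 (0.40 ± 0.11), Atp5j, a peripheral subunit of ATP synthase (0.64 ± 0.18), Uqcrq of complex III (0.42 ± 0.13) and Atp5g3 (0.29 ± 0.09), with limma adjusted p from 0.0154 to 0.0438. The number was 3 without any one of the OE sham hearts at T2 or the second WT sham heart at T3, and 2 without the third WT sham heart at T2. It was 2 without the first or the second OE sham heart at T3 and 10 without the third, and 0 with libraries scaled by their totals, where 79.5% of all genes called were lower, against 49.7%.

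**Figure D4:**
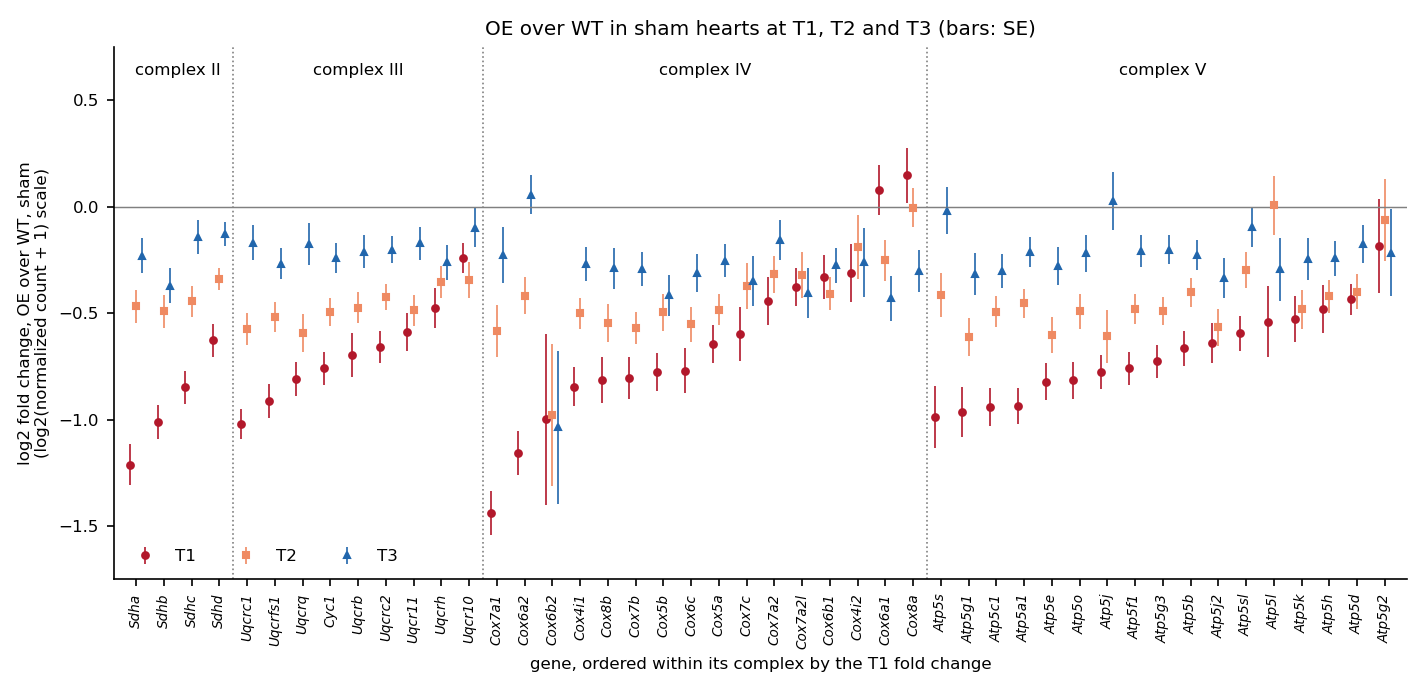
Log2 fold change of OE over WT sham hearts (vertical axis) of each tested gene at T1, T2 and T3 (circles, squares, triangles, with SE), ordered within its complex by the T1 value (horizontal axis). The medians over the 46 genes are -0.74, -0.48 and -0.24, and Cox6a1 and Cox8a stand near 0 at T1 (0.08 and 0.15) and below 0 at T3 (-0.43 and -0.30).

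After MI, few of the genes were called between OE and WT at the later times. At T2, limma called none of the 46 genes in OE over WT MI hearts (1.56% of all genes in either direction, 5 of the 46 at an unadjusted p under 0.05, 0 by edgeR), with a median of -0.05. Uqcrc1 had 12701, 15131 and 13057 normalized counts in OE MI hearts, against 13408, 14837 and 16334 in WT MI hearts. Sdhb had 9052, 10957 and 10221 normalized counts in OE MI hearts, against 10218, 10677 and 10575 in WT MI hearts. For both genes the groups overlapped. Of the markers at T2, 1 of 10 for cardiomyocytes and 5 of 9 for macrophages were called lower in OE MI hearts. Their part was not tested. The 47 genes together stood at 39.3 to 44.2% of the summed cardiomyocyte markers in OE MI hearts at T2. In WT MI hearts at T2 they stood at 46.0 to 50.8%, without overlap. The same percentage at T3 was 43.0 to 45.8% in OE MI and 43.8 to 50.3% in WT MI hearts, with overlap. At T3, 2 of the 46 genes fell, Cox6a1 (-0.35 ± 0.10, limma adjusted p = 0.0406) and Atp5g1 (-0.32 ± 0.09, limma adjusted p = 0.0482), with 2.09% of all genes called lower and 1.2% higher. Of the markers, 2 of 10 for cardiomyocytes and 1 of 9 for macrophages were called lower there, and their part was not tested. Left-out libraries gave 0 (without the first or the fourth WT MI heart) or 1, and library totals 0. Every OE MI heart lay below every WT MI heart for 3 genes at T2 and 9 at T3, against 10.3% and 4.71% of all genes.

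Respiratory genes were also lower after MI than after sham treatment in WT hearts at the later times. At T1, 1 of the 46 genes was called in WT MI over WT sham hearts, Uqcrc1 (-0.28 ± 0.07, limma adjusted p = 0.0311), while 1.49% of all genes were called lower and 4.31% higher. There 2 of 10 cardiomyocyte markers were called lower and 7 of 9 fibroblast and 5 of 9 macrophage markers higher, and their part was not tested. It was no longer called without replicate 1, 2 or 4 of WT sham or replicate 2, 3 or 4 of WT MI. At T2, 35 genes fell in WT MI hearts and none rose, with a median of -0.34, and 10.4% of all genes were called lower and 11.4% higher. By complex, 4 of 4, 8 of 9, 9 of 16 and 14 of 17 genes fell. Atp5j had 5191, 5264 and 5627 normalized counts in WT MI hearts at T2, against 10239, 9766, 12805 and 9792 in WT sham hearts, the largest change among the genes of smallest p (-0.98 ± 0.14, limma adjusted p = 2.59e-05). It did not keep that direction at T3, with 8746, 9231, 8424 and 8516 in WT MI hearts, against 6466, 6727, 7343 and 7322 in WT sham hearts (0.33, limma adjusted p = 0.0785). Atp5a1 had 59226, 58371 and 64420 normalized counts in WT MI hearts at T2, against 82602, 80019, 87086 and 81496 in WT sham hearts (-0.45 ± 0.07, limma adjusted p = 9.24e-05). Both genes were lower in every WT MI heart than in any WT sham heart at T2. Uqcrc2, a core protein of complex III (-0.38 ± 0.07), Sdhd (-0.32 ± 0.06) and Sdhc (-0.46 ± 0.08) followed, with limma adjusted p from 0.000199 to 0.000223. Fitted on these groups alone, 17 of the 46 genes were called, and 23 with libraries scaled by their totals, where 17.0% of all genes called were lower, against 47.7% in the authors' scale. In the same comparison 8 of 10 cardiomyocyte markers were called lower, with sums of 749235 to 908501 in WT MI hearts against 1036077 to 1196867 in WT sham hearts. All 9 fibroblast markers were called higher, with sums of 46679 to 63553 in WT MI hearts against 21028 to 22920 in WT sham hearts. Their part in the result was not tested.

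At T3, 24 genes were lower in WT MI than in WT sham hearts and none was higher, with a median of -0.25, beside 6.67% of all genes called lower and 8.25% higher. Sdha (-0.52 ± 0.08), Atp5b (-0.34 ± 0.07), Atp5a1 (-0.33 ± 0.07), Sdhb (-0.35 ± 0.08) and Sdhc (-0.33 ± 0.07) had the smallest p (limma adjusted p from 0.000208 to 0.00408). Atp5b had 74443, 83169, 73583 and 77280 normalized counts in WT MI hearts, against 93052, 94908, 100693 and 102803 in WT sham hearts, without overlap. In the same comparison 6 of 10 cardiomyocyte markers were called lower, with sums of 836233 to 978116 in WT MI hearts against 1060496 to 1141261 in WT sham hearts. Called higher were 5 of 9 fibroblast markers (32097 to 45440 in WT MI hearts against 21967 to 24371 in WT sham hearts) and 8 of 9 macrophage markers (8861 to 12908 against 5214 to 7568 in WT sham hearts), and the part of these markers was not tested. The count was 12 to 15 without the third or the fourth WT sham heart or without the first or the third WT MI heart. With libraries scaled by their totals 2 genes were called lower, and Atp5j, Cox6a1 and Cox8a higher, and 5.12% of all genes called were lower, against 44.7% in the authors' scale. In OE hearts, limma called none of the 46 genes in MI over sham at T1 (0.0065% of all genes in either direction, 10 of the 46 at an unadjusted p under 0.05, 0 by edgeR). It also called none at T2 (0.0258% of all genes, 3 at an unadjusted p under 0.05, 0 by edgeR). At T3, 3 genes fell in OE MI over OE sham hearts, Uqcrc1 (-0.29 ± 0.08), Sdha (-0.28 ± 0.08) and Atp5g3 (-0.21 ± 0.07), with limma adjusted p of 0.0153, 0.0195 and 0.0353. Over all genes 7.99% were called lower and 11.1% higher. In OE MI over OE sham hearts at T3, 5 of 10 cardiomyocyte markers were called lower (832079 to 1001700 in OE MI hearts against 995250 to 1080616 in OE sham hearts), and 7 of 9 fibroblast and 7 of 9 macrophage markers higher (29445 to 49856 and 6135 to 9185 in OE MI hearts, against 19934 to 21931 and 4135 to 4751 in OE sham hearts). Of 6 adipocyte markers 4 were called higher, and the part of all these markers was not tested. With library totals none fell and Atp5j, Cox6a1 and Cox8a were called higher, and 5.18% of all genes called were lower, against 41.9%. The count of 3 was 0 without the first OE sham heart or the first OE MI heart, 1 without the second OE MI heart, and 5 and 7 without the third and the fourth OE MI heart.

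At T2 the difference between OE and WT was not the same in MI and sham hearts. The interaction of OE and MI was called for 24 of the 46 genes, all positive, which means that the fall in OE hearts was smaller after MI than after sham treatment. The median was 0.41, and 2.54% of all genes were called lower and 2.39% higher. By complex, 4 of 4, 5 of 9, 6 of 16 and 9 of 17 genes were called. The interaction was also called positive for 3 of 10 cardiomyocyte markers (median 0.39) and negative for 8 of 9 fibroblast markers (median -1.26), and their part was not tested. Atp5e, a small subunit of the ATP synthase head, had 2386, 2574 and 2375 normalized counts in OE MI hearts and 2125, 2086, 2247 and 2243 in OE sham hearts. It had 2507, 2351 and 2501 in WT MI hearts and 3072, 3026, 4259 and 2998 in WT sham hearts (interaction 0.60 ± 0.13, limma adjusted p = 0.0117). The WT sham hearts alone stood high, and the other 3 groups lay close together. Atp5g3 (0.46 ± 0.10), Uqcrc2 (0.43 ± 0.09), Atp5f1, a stalk subunit of ATP synthase (0.49 ± 0.11), and Atp5a1 (0.46 ± 0.10) had limma adjusted p from 0.0117 to 0.0124. Among the marker genes of the set Cox7a1 had 0.63, Sdhb 0.43 and Uqcrc1 0.45 (limma adjusted p = 0.0475, 0.0338 and 0.0226). The interaction, OE over WT sham and WT MI over WT sham share the WT sham hearts at T2. With replicates numbered 1, 3 and 4 in OE MI and 2, 3 and 4 in WT MI, the number called was 0 without replicate 3 of OE MI, 9 without replicate 2 of OE sham, 10 and 5 without replicates 2 and 3 of WT MI, and 15 without replicate 3 of WT sham. It was 9 when fitted on the T2 hearts alone and 4 (Atp5a1, Atp5e, Atp5f1, Uqcrc2) with libraries scaled by their totals, where 89.9% of all genes called were lower, against 51.5% in the authors' scale. At T3 limma called the interaction for none of the 46 genes (0.00644% of all genes, 2 of the 46 at an unadjusted p under 0.05, 0 by edgeR). The change of the OE effect between T2 and T3 in MI hearts was called for none (0.0% of all genes, 2 of the 46 at an unadjusted p under 0.05, 0 by edgeR).

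Genes that build or regulate the complexes were taken from fixed lists and read in OE over WT sham hearts at T1. Of 4 complex II assembly factors, 3 fell (median -0.34), led by Sdhaf4 (-0.41 ± 0.14, limma adjusted p = 0.0213), Sdhaf1 (-0.31 ± 0.11) and Sdhaf3 (-0.37 ± 0.13). Of 6 complex III assembly factors, 5 fell (median -0.68), with Lyrm7, which assists insertion of the Rieske protein, at -1.48 ± 0.18, Uqcc1 at -0.76 ± 0.09 and Ttc19 at -0.74 ± 0.09 (limma adjusted p = 9.92e-06, 8.61e-06 and 6.03e-06). Of 19 complex IV assembly factors tested, 13 fell and 1 rose (median -0.31), with Cox10, which makes heme for the complex, at -0.69 ± 0.07, Coa7 at -0.81 ± 0.11 and Taco1, a translational activator of mt-Co1, at -0.60 ± 0.10. Cox19, a copper chaperone, was the one called higher (0.63 ± 0.13, limma adjusted p = 0.00102). All 4 complex V assembly factors fell (median -0.93), with Fmc1 at -1.37 ± 0.11, Tmem70 at -0.89 ± 0.08 and Atpaf1 at -0.97 ± 0.12 (limma adjusted p = 2.24e-07, 8.66e-07 and 1.17e-05). Of 16 genes for electron carriers and supercomplexes, 14 fell and none rose (median -0.73), with the coenzyme Q genes Coq10a at -1.39 ± 0.11, Coq9 at -1.18 ± 0.10 and Coq7 at -0.81 ± 0.08 (limma adjusted p = 1.65e-07, 3.88e-07 and 1.31e-06). Of 19 regulators of mitochondrial gene expression, 14 fell and 1 rose (median -0.59), with Perm1, a muscle regulator of oxidative genes, at -1.08 ± 0.13, the mitochondrial DNA helicase Twnk at -0.91 ± 0.11 and the nuclear receptor Esrrg at -0.71 ± 0.09. The coactivator gene Pprc1 was the one called higher (0.66 ± 0.15, limma adjusted p = 0.00203). These counts stand beside 23.3% of all genes called lower and 24.0% higher. In MI hearts at T1 the numbers called lower were 2, 4, 8, 4, 14 and 14 of the 6 lists in this order, with 1 complex IV factor and 1 regulator higher, beside 15.2% of all genes lower and 14.7% higher. At T2 in sham hearts they were 0, 5, 5, 4, 13 and 7, beside 13.6% of all genes. At T3 in sham hearts they were 0, 0, 0, 3, 3 and 0, with 2 complex IV factors and 1 regulator higher, beside 6.57% of all genes lower and 6.54% higher. Cardiomyocyte markers (8, 7, 7 and 3 of 10 called lower) and fibroblast markers (8, 6, 8 and 0 of 9 called higher) moved in the same comparisons to these extents, and their part in the lists was not tested.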

How the data were processed

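Poly(A) RNA from powdered whole mouse heart was sequenced in 45 libraries of 12 groups. The deposited values are normalized counts per gene, a signal made by the authors from read counts; the submitters' processing notes list GRCm38 and, without versions, DESeq2, HTSeq, STAR and cutadapt. Per the file headers, T1 and the later times stand in separate tables, each normalized on its own. In every library the low values were whole multiples of 1 step, and dividing by it gave whole reads for 100.0% of values (tolerance 0.1 read) and depths of 14199741 to 19015856 reads, so counts near 10 carry wide counting error.

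Genes with at least 10 normalized counts in at least 4 libraries (T1) or 3 (T2 and T3) were tested: 15375 and 15533. The test was limma 3.58.1 (R 4.3.3; trend and robust) on log2(normalized count + 1) with group means over all groups of a table, and Benjamini-Hochberg adjustment over all genes tested; fold changes are on that scale, which understates the change of low genes, and a gene was called at an adjusted p under 0.05. A count test on the recovered reads (edgeR 4.0.16, TMM) was an alternative, because the values as deposited are not counts. Ratios of isoforms were tested with exact two-sided permutation tests over libraries. The limma fit was tested on simulated data. Other alternatives were a pseudocount of 5, no filter, only the groups compared, library totals, the replicate number as a block, and each library left out. Near-identical copies were sought with BLAST+ 2.17.0 among annotated transcripts, and figures were drawn with matplotlib 3.10.9.

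The labels do not say how replicate hearts were kept apart beyond separate samples, so a p-value rests on the spread between deposited samples, which may be technical. No pair of replicates agreed within sampling noise (lowest chi-square per gene 4.11 over 63 pairs). The genes followed and the lists of other genes and markers were chosen with earlier results of these data known. Named genes were the 3 marker genes, the complex II subunits, Cyc1, the isoform pairs, the largest and smallest change per complex at T1 in sham hearts, up to 5 called genes of smallest p in the other comparisons, those called at several times, and up to 3 called genes each way per list of other genes; Atp5b, Atp5a1, Atp5c1, Atp5g1 and Atp5g3 at T1, the uncalled genes listed for MI hearts, and the individual libraries of Atp5j at T3 were added after their values were seen.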

Additional observations from a re-analysis of the deposited data

Results flagged for a closer look

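In groups of 4 libraries, a library was marked where its gap to the nearest other exceeded Dixon's critical value; 12 of 90 groups of values tested were marked, and chance marks about 1 in 20. Replicate 3 of WT sham at T2 was the highest of its group for complex III (98143 summed normalized counts), complex IV (127603), complex V (313422), Uqcrc1 (24164) and Sdhb (16122). Replicate 2 of WT MI at T3 was the highest for complex III (79299) and complex IV (96964). Single marks fell on Uqcrc1 in replicate 2 of WT sham at T1 (22531, the highest) and in replicate 4 of WT sham at T3 (20963, the highest), on Cox7a1 in replicate 3 of OE MI at T1 (2328, the lowest), on complex II in replicate 2 of OE sham at T2 (35962, the lowest) and on the Cox8b to Cox8a log2 ratio in replicate 1 of OE sham at T2 (1.6002, the lowest). The effect of OE differed between MI and sham hearts at T2 for 24 of the 46 genes tested, by limma's interaction term, and between T3 and T2 in sham hearts for 6 genes.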

How the results depend on the processing

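The number of respiratory genes called in OE over WT stayed at 40 to 42 (sham, T1), 39 to 41 (MI, T1) and 38 to 42 (sham, T2) when single libraries were left out, and at 28 to 36 in WT MI over sham at T2. It was less stable elsewhere, at 1 to 27 for OE over WT sham at T3, 0 to 1 for OE over WT MI at T3, 0 to 1 for WT MI over sham at T1, 12 to 28 for WT MI over sham at T3, 0 to 7 for OE MI over sham at T3, 0 to 29 for the interaction at T2 and 2 to 10 for T3 minus T2 in sham hearts. With library totals the counts were 3 (OE over WT sham, T3), 0 (OE over WT MI, T3), 23 and 5 (WT MI over sham, T2 and T3), 4 (interaction, T2) and 0 (T3 minus T2, sham). The 5 were 2 lower and 3 higher, where the authors' scale gave 24 lower and 0 higher. In OE MI over sham at T3 the 3 lower calls became 0 lower and 3 higher, of other genes. Uqcr10 reversed, to 0.061 in sham and 0.0378 in MI hearts at T1. OE over WT MI at T3 gave 1 gene with no filter, 1 with edgeR and 0 with only the groups compared, a setting that gave 0 for WT MI over sham at T1, 17 at T2 and 9 for the interaction at T2. Apart from the totals and the fits with fewer samples, the cause was not tested. The Cox8b to Cox8a difference at T3, not called, was -0.1213 without replicate 3 of OE sham and -0.0004 without replicate 1 of WT sham, over a range of -0.1213 to 0.0982. The Cox6a2 to Cox6a1 difference at T3 stayed at 0.3792 to 0.5435, but 3 against 3 or 2 against 4 libraries cannot reach 0.05 by the exact test. Replicate numbers did not pair the libraries: deviations of same-numbered libraries had median correlations of -0.015 (T1), -0.018 (T2) and 0.009 (T3), over 0.1 in 6 of 24, 0 of 18 and 2 of 21 pairs. With the replicate block the count was 0 for WT MI over sham at T1 and 6 for OE MI over sham at T3; it was within 1.5 times of the count without the block elsewhere. Depth limits Cox7b2 and Cox6b2.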

Other observations

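Atp5j, a peripheral subunit of complex V, was lower after MI in WT hearts at T2 and not at T3. It had 5009, 5756 and 5148 normalized counts in OE MI hearts at T2 and 7817, 7406, 5060 and 7902 in OE sham hearts, where replicate 3 lay with the MI hearts. The WT MI hearts held 5191, 5264 and 5627, against 9766 to 12805 in WT sham hearts. At T3 the WT MI hearts, at 8424 to 9231, lay above the WT sham hearts, at 6466 to 7343. The T2 difference was called and the T3 difference was not (limma adjusted p = 2.59e-05 and 0.0785 for WT MI over WT sham). Gabpa, a gene of the regulator list that encodes a subunit of an ETS-type transcription factor, showed a like course, with 858 to 934 normalized counts in WT MI hearts at T2 against 1233 to 1601 in WT sham hearts, and 1292 to 1348 in WT MI hearts at T3 against 978 to 1097 in WT sham hearts. Both genes were picked out after their values were seen, and no difference between the times was tested for them in WT hearts.

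The regulator genes Ppargc1a, a coactivator of mitochondrial biogenesis, and Nrf1, a transcription factor of nuclear respiratory genes, were read in OE over WT sham hearts at T1. Ppargc1a was called lower, with a log2 fold change of -1.39 ± 0.45 (limma adjusted p = 0.02). Nrf1 was not called (0.22 ± 0.09, limma adjusted p = 0.0657). Both were singled out after their values were seen, and the difference between them was not tested.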
